A study of Mus musculus with 18 samples.

Results

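Aldo-keto reductases, carbonyl reductases and aldehyde dehydrogenases are enzymes that take aldehydes and ketones out of circulation by reducing or oxidising them. The members described here come from a list of 10 mouse genes: the aldo-keto reductases Akr1b8, Akr1b3, Akr1a1 and Akr1c14, the carbonyl reductases Cbr1, Cbr2 and Cbr3, and the aldehyde dehydrogenases Aldh1a1, Aldh2 and Aldh3a1. Each gene was followed through probe sets annotated to it alone, and where it had several, the one with the highest mean over the 18 arrays was used. In this way 9 of the 10 genes were followed, out of 18193 genes in all, and Akr1b3 was not analysed here.

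The samples were mouse lung tissue from an inhalation study of cobalt metal dust in which groups of male and female B6C3F1/N mice breathed no cobalt or an aerosol of 1.25 mg/m3, 2.5 mg/m3 or 5 mg/m3 for 6 hours a day on 5 days of the week, for at most 105 weeks, from an age of 5 to 6 weeks. RNA was measured on 6 lung tumours from the cobalt exposure (cobalt tumours), 6 labelled spontaneous (spontaneous tumours) and 6 vehicle control lungs (control lung), with 1 Affymetrix 3′ expression array each. The tumours had been cut out of the surrounding lung before freezing, no genetic change is named in the labels, and the labels do not give the dose or sex of a sample or whether each array stands for its own animal. All levels below are log2 values, so a difference of 1 is a factor of 2, and arrays are named by group and replicate number.

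The aldo-keto and carbonyl reductases use NADPH to turn aldehydes, ketones and quinones into alcohols, whereas aldehyde dehydrogenases use NAD or NADP to oxidise aldehydes to acids. Their substrates include products of lipid peroxidation, retinal, steroids and inhaled chemicals. In mouse lung Cbr2 is known from club cells of the airways and alveolar type 2 cells, and Aldh1a1 is known from airway epithelium.

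Promoters are shown for the member with the largest rise, Akr1b8, for Cbr2, the member with the deepest fall in cobalt tumours, and for Cbr1 and Cbr3, neighbouring paralogs on chromosome 16 whose levels ran together across tumours. The windows are from RefSeq on build GRCm38.p6 and run from 250 bases before the gene start to 50 after it, 5′ to 3′ on the gene's strand. They lie at chr6:34353896-34354195 (plus strand) for Akr1b8, chr11:120731972-120732271 (minus strand) for Cbr2, chr16:93607587-93607886 (plus strand) for Cbr1 and chr16:93682969-93683268 (plus strand) for Cbr3. Capitals mark letters that match a searched motif on either strand.
Akr1b8: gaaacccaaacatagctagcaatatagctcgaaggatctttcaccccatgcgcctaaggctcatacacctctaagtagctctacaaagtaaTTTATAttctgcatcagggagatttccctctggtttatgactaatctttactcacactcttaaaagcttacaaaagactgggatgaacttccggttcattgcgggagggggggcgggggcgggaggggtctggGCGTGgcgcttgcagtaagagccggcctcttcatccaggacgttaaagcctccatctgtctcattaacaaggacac
Cbr2: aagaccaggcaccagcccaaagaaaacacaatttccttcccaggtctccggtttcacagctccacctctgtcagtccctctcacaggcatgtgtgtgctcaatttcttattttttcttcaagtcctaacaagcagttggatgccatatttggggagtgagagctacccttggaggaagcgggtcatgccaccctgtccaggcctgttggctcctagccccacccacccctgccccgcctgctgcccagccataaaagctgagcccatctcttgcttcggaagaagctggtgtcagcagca
Cbr1: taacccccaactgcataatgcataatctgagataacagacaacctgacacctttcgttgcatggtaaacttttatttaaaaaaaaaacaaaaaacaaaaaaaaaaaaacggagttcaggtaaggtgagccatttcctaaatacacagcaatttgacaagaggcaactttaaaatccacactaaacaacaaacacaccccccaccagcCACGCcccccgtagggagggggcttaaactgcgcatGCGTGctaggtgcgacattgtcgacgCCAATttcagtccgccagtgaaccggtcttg
Cbr3: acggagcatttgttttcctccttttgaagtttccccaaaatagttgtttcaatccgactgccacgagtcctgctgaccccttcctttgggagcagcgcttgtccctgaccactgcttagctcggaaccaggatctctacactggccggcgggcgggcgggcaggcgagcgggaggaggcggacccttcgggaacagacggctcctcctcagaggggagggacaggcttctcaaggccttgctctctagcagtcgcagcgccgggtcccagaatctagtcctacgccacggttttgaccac

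Of the 9 genes followed, 7 had a RefSeq window (Aldh1a1 had a pair of them), and 5 motifs were searched in all 32851 windows. Aldh2 and Aldh3a1 had no window, so their promoters were not searched. The core of the antioxidant response element, TGACNNNGC, was found in 12.4% of all windows and in 0 of the 7 members with a window. The dioxin response element core, GCGTG, was found in 32.4% of all windows and in 3 members: at position -26 from the gene start in Akr1b8, at 18 in Akr1c14, and in Cbr1 at -7 and, on the opposite strand, at -43. CCAAT was found in 37.4% of all windows and in 3 members (Akr1c14, Cbr1 and Aldh1a1). TATAAA was found in 13.6% of all windows and in 1 member, on the opposite strand at -159 in Akr1b8. The AP-1 site TGANTCA was found in 7.81% of all windows and in 1 member, at -57 in the upstream window of Aldh1a1. None of these letters occurred in the Cbr2 and Cbr3 windows. No 2 of the marked matches overlapped, and a match describes letters only.

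Before the member genes are taken in turn, several facts about the arrays bear on them. The profile of cobalt tumour 6 over all genes correlated more closely with control lungs (mean r 0.971) than with the other cobalt tumours (0.954), and it had the highest mean level of any cobalt tumour for markers of club (10.79), ciliated (7.80), alveolar type 1 (12.05) and endothelial cells (10.46) and fibroblasts (10.96). Spontaneous tumours 2 and 6 had the lowest alveolar type 2 marker levels of all 12 tumours (11.88 and 11.76). Control lung 6 carries a description that names a spontaneous tumour while its other labels say control, and its mean r was 0.989 with the other control lungs and 0.935 with spontaneous tumours. Leaving it out changed calls of Akr1a1, Akr1c14, Cbr1 and Cbr3, as given below, and of no other member. Xist, which is transcribed from an inactive X chromosome, was above 10 in 4 of 6 cobalt tumours, 2 of 6 spontaneous tumours and 6 of 6 control lungs, and the remaining tumours carried RNA of Y-linked genes. The groups were thus not matched for sex-linked RNA. In a bulk sample of this kind, fewer cells of a type and less RNA per cell cannot be told apart.

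Marker lists of lung cell types moved between tumours and control lung as follows. Endothelial markers were lower in 12 of 12 in both tumour groups, with mean levels of 7.22 to 10.46 in cobalt tumours, 7.71 to 9.19 in spontaneous tumours and 11.08 to 11.47 in control lung. Ciliated cell markers were lower in 9 of 9 in both tumour groups (5.68 to 7.80 in cobalt tumours, 5.82 to 6.98 in spontaneous tumours, 8.30 to 8.67 in control lung), as were all 4 heart muscle markers (5.38 to 8.37 in cobalt tumours, 5.21 to 8.01 in spontaneous tumours, 10.83 to 11.58 in control lung). Of 9 measured alveolar type 2 markers, 6 were higher in cobalt tumours and 4 in spontaneous tumours, and 0 were lower in either, with levels of 12.88 to 13.18 in cobalt tumours, 11.76 to 13.52 in spontaneous tumours and 12.26 to 12.52 in control lung. Club cell markers were mixed: of 11, 3 were higher and 6 lower in cobalt tumours, and 3 were higher and 4 lower in spontaneous tumours. Their mean level was 7.98 to 10.79 in cobalt tumours, 8.84 to 10.49 in spontaneous tumours and 9.91 to 10.62 in control lung. Of 8 alveolar type 1 markers 6 were lower in each tumour group and 0 were higher. Of 11 fibroblast markers 7 were lower in each, and 2 were higher in spontaneous tumours. All 5 smooth muscle markers were lower in both tumour groups. Of 8 measured macrophage markers, 2 were higher and 1 lower in cobalt tumours, and 4 were higher and 0 lower in spontaneous tumours. Of 3 measured adipocyte markers, 2 were lower in cobalt tumours and 1 in spontaneous tumours. For all genes the shares called were 14.7% higher and 19.3% lower in cobalt tumours, and 16.4% higher and 18.2% lower in spontaneous tumours. The part of these cell types in the results below was not tested.

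Compared with control lung, both tumour groups had more Akr1b8 and less Aldh1a1, Aldh2 and Aldh3a1 on average. Cbr2 was below every control lung in all 6 tumours of each group. Its mean difference was -4.33 in cobalt tumours and -2.27 in spontaneous tumours. Tests were made with limma on all 18 arrays, with Benjamini-Hochberg adjustment over all 18193 genes and a threshold of 0.05. In cobalt tumours against control lung, 2 of the 9 members were higher (Akr1b8, Cbr3), 4 were lower (Cbr2, Aldh1a1, Aldh2, Aldh3a1) and 3 were not called, where 34.0% of all genes were called (14.7% higher, 19.3% lower). In spontaneous tumours against control lung, 3 were higher (Akr1b8, Cbr1, Cbr3), 4 were lower (Akr1c14, Aldh1a1, Aldh2, Aldh3a1) and 2 were not called, where 34.6% of all genes were called (16.4% higher, 18.2% lower). The median difference of the members was -0.81 in cobalt tumours and -0.44 in spontaneous tumours, beside -0.03 for all genes in each. The members were chosen with earlier results of these data known, so their counts and median beside all genes are no test of these enzymes. Groups did not overlap for 5 members in cobalt tumours, where 18.9% of all genes did not overlap, and for 3 in spontaneous tumours, where 21.1% did not. Without cobalt tumour 6, 2 members were higher and 5 lower in cobalt tumours and 3 were higher and 5 lower in spontaneous tumours, and without spontaneous tumours 2 and 6, 1 was higher and 3 were lower in spontaneous tumours. Both comparisons use the same 6 control lungs.

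**Figure D1:**
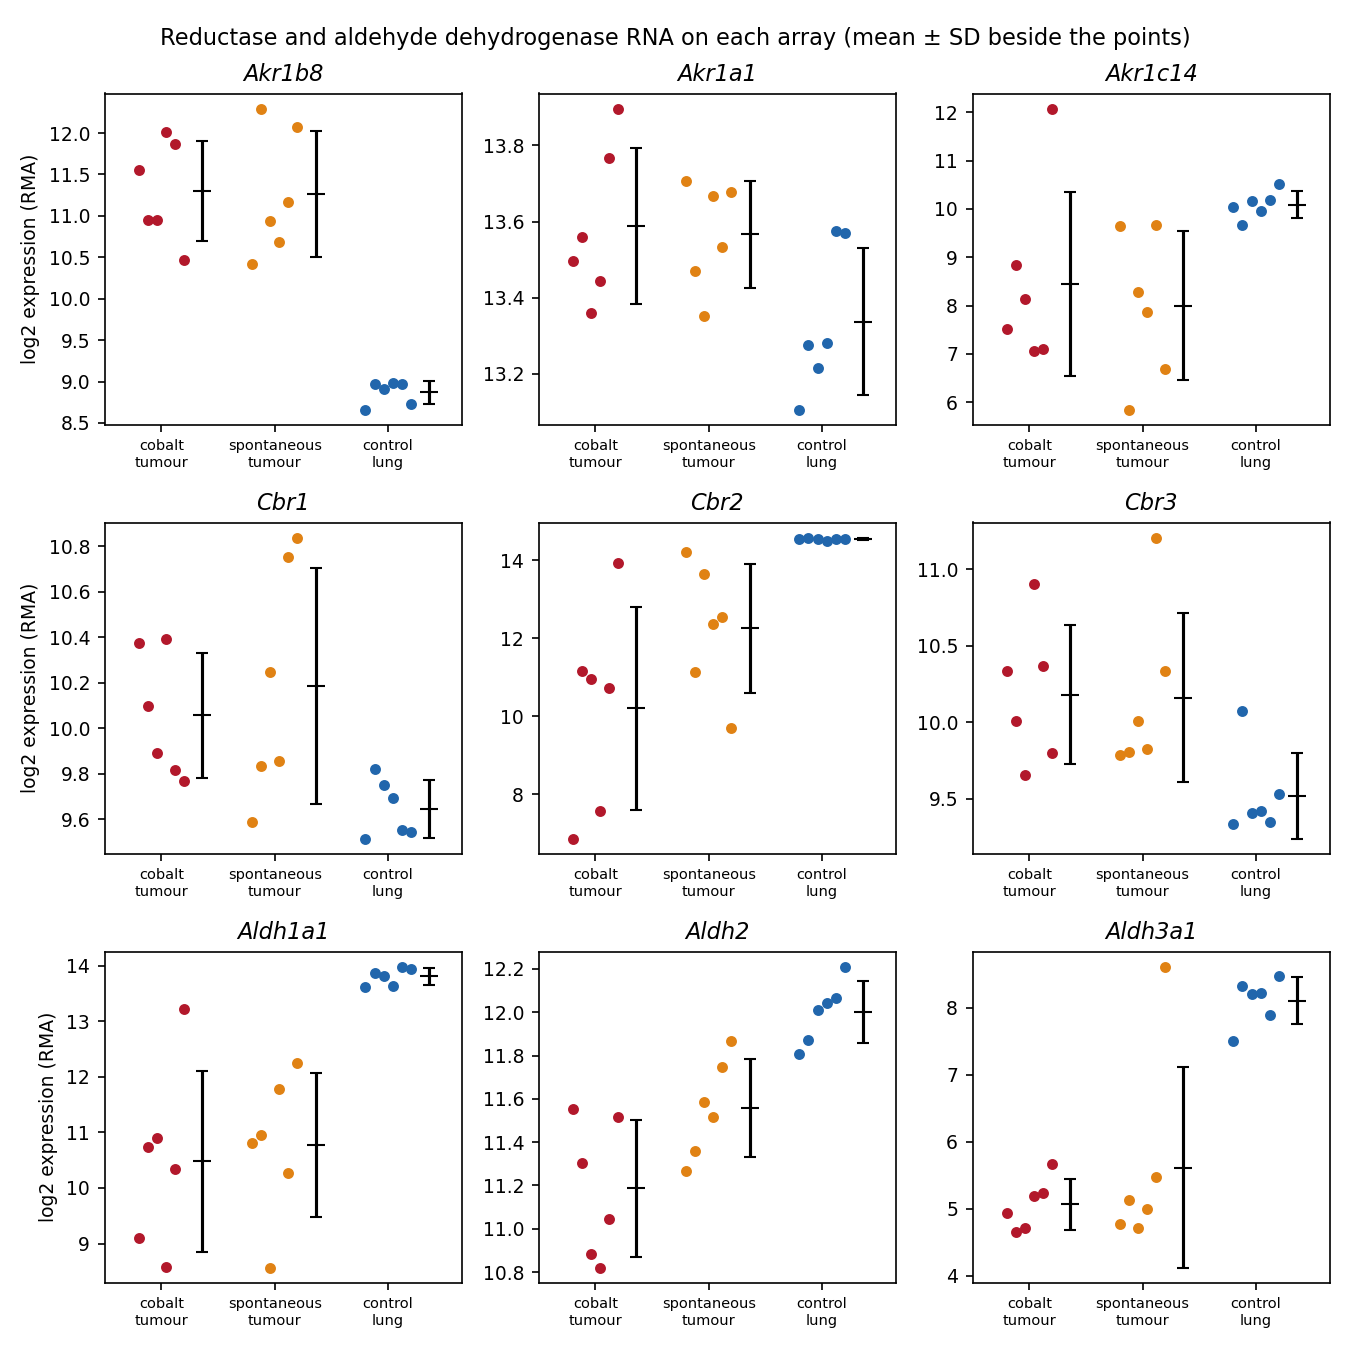
Level of each of the 9 genes (log2 expression by RMA, vertical axis, with its own scale per panel) on every array of cobalt tumours, spontaneous tumours and control lung (horizontal axis), 1 point per array, with the mean and SD of 6 arrays beside the points. Akr1b8 is above all control lungs in all 12 tumours, while Cbr2 and Aldh1a1 lie in a tight band in control lung and spread widely below it in tumours.

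Akr1b8 encodes an aldose reductase-like enzyme that reduces aldehydes, including retinal. Its lowest, median and highest levels were 10.46, 11.25 and 12.01 in cobalt tumours, 10.41, 11.05 and 12.30 in spontaneous tumours and 8.66, 8.94 and 8.98 in control lung. Every tumour of both groups was above every control lung. The rise was 2.43 (SE 0.31), or 5.38-fold, in cobalt tumours (limma adjusted p 1.33e-05) and 2.39 (SE 0.31), or 5.25-fold, in spontaneous tumours (adjusted p 1.56e-05). Without cobalt tumour 6, the lowest of its group, the rise in cobalt tumours was 2.60. Among tumours alone, Akr1b8 spanned 1.88, a 3.68-fold range, beside an SD of 0.14 among control lungs.

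Akr1a1, the aldehyde reductase that also makes a precursor of vitamin C in mice, was not called in either comparison. It had 13.36, 13.53 and 13.90 (lowest, median, highest) in cobalt tumours, 13.35, 13.60 and 13.71 in spontaneous tumours and 13.11, 13.28 and 13.58 in control lung, and the groups overlapped. The difference was 0.25 (SE 0.11, limma adjusted p 0.0804) in cobalt tumours and 0.23 (adjusted p 0.106) in spontaneous tumours. Its other 3 probe sets differed by 0.02 to 0.14 in cobalt tumours and 0.06 to 0.24 in spontaneous tumours. The cobalt difference passed the threshold when control lung 5, control lung 6 or cobalt tumour 3 was left out (adjusted p 0.0458 to 0.0480), with the replicate number as a block (0.25, adjusted p 0.0397) and with the level of Y-linked genes as a covariate (0.31, adjusted p 0.0430). With cyclic loess normalization it was 0.02 in cobalt tumours and turned to -0.01 in spontaneous tumours.

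Akr1c14 encodes a 3-alpha-hydroxysteroid dehydrogenase that inactivates androgens and other steroids. In cobalt tumours its lowest, median and highest levels were 7.06, 7.82 and 12.08, in spontaneous tumours 5.85, 8.07 and 9.67, and in control lung 9.66, 10.11 and 10.53. Of the cobalt tumours 5 were below every control lung and 1, cobalt tumour 6, was above every control lung, whereas the highest spontaneous tumour lay just above the lowest control. The difference in cobalt tumours was -1.64 (SE 0.77, limma adjusted p 0.111) and was not called, but without cobalt tumour 6 it was -2.36 (adjusted p 0.00339), and with array weights -2.08 (adjusted p 0.00258). In spontaneous tumours Akr1c14 fell by 2.09, or 4.27-fold (SE 0.77, adjusted p 0.0423), a call lost without spontaneous tumour 2, 3, 4 or 6 or any 1 of the control lungs (differences of -2.43 to -1.66 and adjusted p up to 0.0968 over all arrays left out in turn), with the replicate block (adjusted p 0.0727), with Y-linked RNA as a covariate (-1.84, adjusted p 0.170) and without spontaneous tumours 2 and 6 (-1.23, adjusted p 0.233). The Akr1c genes lie in 1 cluster of near-identical paralogs, and a probe set of 1 gene may take signal from another, which was not tested.

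Among the carbonyl reductases, Cbr3 and Cbr1 lay on average modestly above control lung in both tumour groups, with calls close to the threshold, and Cbr2 lay below control lung in all 12 tumours, with the deeper fall in cobalt tumours. For Cbr1 the tumour group in which the difference was called depended on the test, as given below. For Cbr2 only the call in spontaneous tumours depended on the test. Cbr1 is the cytosolic carbonyl reductase of quinones and prostaglandins. Its lowest, median and highest levels were 9.77, 9.99 and 10.39 in cobalt tumours, 9.59, 10.05 and 10.84 in spontaneous tumours and 9.51, 9.62 and 9.82 in control lung. The ranges overlapped in both comparisons. The difference was 0.41 (SE 0.19, limma adjusted p 0.111) in cobalt tumours, which was not called, and 0.54 (SE 0.19, 1.45-fold, adjusted p 0.0364) in spontaneous tumours. That call was lost without control lung 1, 4, 5 or 6 or spontaneous tumour 3, 5 or 6, with differences of 0.41 to 0.66 and adjusted p up to 0.0872 over all arrays left out in turn. With only the 12 compared arrays in the fit, Cbr1 was called in cobalt tumours (limma adjusted p 0.0182) and not in spontaneous tumours (adjusted p 0.0546). The exact permutation test gave the same turn, with adjusted p 0.0243 in cobalt tumours and 0.0590 in spontaneous tumours. The cobalt difference was also called with array weights (0.47, adjusted p 0.0187) and without cobalt tumour 6 and spontaneous tumours 2 and 6 (0.47, adjusted p 0.0430). The spontaneous call was also lost with cyclic loess, the replicate block, Y-linked RNA as a covariate and without spontaneous tumours 2 and 6 (adjusted p 0.0706 to 0.150).

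Cbr3, the close paralog of Cbr1, had 9.66, 10.17 and 10.90 in cobalt tumours, 9.79, 9.92 and 11.21 in spontaneous tumours and 9.34, 9.41 and 10.07 in control lung (lowest, median, highest). Of the tumours, 3 of 6 cobalt and 2 of 6 spontaneous were above every control lung, and the highest control, control lung 2, stood apart from the other controls. The difference was 0.66 (SE 0.24, 1.58-fold, limma adjusted p 0.0433) in cobalt tumours and 0.64 (SE 0.24, 1.56-fold, adjusted p 0.0485) in spontaneous tumours. Both calls lay close to the threshold. The cobalt call was lost without control lung 1, 3, 4, 5 or 6, spontaneous tumour 3, or cobalt tumour 1, 2, 4 or 5 (0.51 to 0.77, adjusted p up to 0.108), and the spontaneous call without control lung 1, 3, 4, 5 or 6, spontaneous tumour 3, 5 or 6, or cobalt tumour 1, 2 or 5 (0.43 to 0.75, adjusted p up to 0.103). Both were also lost with cyclic loess, the replicate block, Y-linked RNA as a covariate and over high-Xist arrays (adjusted p 0.0662 to 0.115 in cobalt tumours, 0.0729 to 0.294 in spontaneous tumours), and the spontaneous call without spontaneous tumours 2 and 6 as well (adjusted p 0.0693).

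Cbr2, a mitochondrial tetrameric carbonyl reductase abundant in mouse lung, was the most variable member across tumours. In cobalt tumours 1 to 6 its levels were 6.87, 11.16, 10.96, 7.59, 10.72 and 13.93, and in spontaneous tumours 1 to 6 they were 14.21, 11.14, 13.64, 12.36, 12.54 and 9.69. In control lung they lay between 14.49 and 14.58, with an SD of 0.03. The highest deposited value of any probe set was 15.26, and whether signals this bright were saturated was not assessed here. Every tumour was below every control lung, by little in spontaneous tumour 1 and by the most in cobalt tumours 1 and 4. The fall in cobalt tumours averaged 4.33 on the log2 scale (SE 0.95), or 20.2-fold (limma adjusted p 0.00179), and the difference without cobalt tumour 6 was -5.08. The difference in spontaneous tumours was -2.27 (SE 0.95) with an adjusted p of 0.0751. That difference was thus not called in the fit over all 18 arrays, although the groups did not overlap (exact two-sided permutation p 0.00216, the smallest that 6 against 6 arrays can give, and 0.0102 after adjustment over all genes). Every gene whose groups do not overlap, 21.1% of all genes in this comparison, has these same permutation values, so they only restate the lack of overlap. The Cbr2 difference passed the threshold by that adjusted permutation p and in limma with only the 12 compared arrays (adjusted p 0.0109), without spontaneous tumour 1 (-2.66, adjusted p 0.0461), over high-Xist arrays (-3.51, adjusted p 0.00891) and, with the difference itself unchanged, without cobalt tumour 1 or 6 (adjusted p 0.0442 and 0.0328).

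The 12 tumours spanned 7.35 in Cbr2, a 163-fold range, and the SD of its level over tumours was larger than that of 99.9% of all genes. Cobalt tumours 1 and 4, with the lowest Cbr2, had mean club cell marker levels of 8.99 and 7.98, and cobalt tumour 6, with the highest of its group, had 10.79. Among spontaneous tumours the lowest Cbr2 was in tumour 6, with a club cell marker level of 9.11 and an alveolar type 2 marker level of 11.76. Spontaneous tumour 3, with the lowest club cell marker level of its group (8.84), had a Cbr2 level of 13.64, the second highest of its group, and an alveolar type 2 marker level of 13.45. Cobalt tumours 1 and 4 had alveolar type 2 marker levels of 13.18, the highest of their group, and 12.95, where the other cobalt tumours had 12.88 to 13.14. They were also the 2 cobalt tumours with Y-linked RNA. The part of cell content and of sex-linked RNA in the spread of Cbr2 was not tested.

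Aldh1a1 encodes a cytosolic aldehyde dehydrogenase that oxidises retinal to retinoic acid. Cobalt tumours 1 to 6 had levels of 9.09, 10.74, 10.91, 8.58, 10.33 and 13.21, spontaneous tumours 1 to 6 had 10.80, 10.96, 8.56, 11.78, 10.27 and 12.25, and control lungs had 13.63 to 13.99. All 12 tumours lay below all 6 control lungs, with cobalt tumour 6 closest to them. Aldh1a1 fell by 3.34 (SE 0.65), or 10.1-fold, in cobalt tumours (limma adjusted p 0.000647) and by 3.04 (SE 0.65), or 8.25-fold, in spontaneous tumours (adjusted p 0.0014). Both calls held with every array left out in turn (-3.88 to -2.96 in cobalt tumours, -3.34 to -2.60 in spontaneous tumours). In cobalt tumours the 4 arrays with high Xist had 10.33 to 13.21 and the 2 with Y-linked RNA had 8.58 and 9.09, and in spontaneous tumours the 2 arrays with high Xist had 11.78 and 12.25 and the 4 with Y-linked RNA had 8.56 to 10.96. With the level of Y-linked genes as a covariate the differences from control lung were -2.60 in cobalt tumours and -1.62 in spontaneous tumours, and both calls remained.

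Aldh2, the mitochondrial enzyme that clears acetaldehyde, fell by a smaller but tighter margin. Its lowest, median and highest levels were 10.82, 11.17 and 11.55 in cobalt tumours, 11.26, 11.55 and 11.87 in spontaneous tumours and 11.81, 12.02 and 12.21 in control lung. All 6 cobalt tumours and 5 of 6 spontaneous tumours were below every control lung. It fell by 0.81 (SE 0.14, 1.76-fold, limma adjusted p 0.000171) in cobalt tumours and by 0.44 (SE 0.14, 1.36-fold, adjusted p 0.0170) in spontaneous tumours. With Y-linked RNA as a covariate the difference in spontaneous tumours was -0.37 (adjusted p 0.118). Over the 4 other Aldh2 probe sets the differences were -1.15 to -0.10 in cobalt tumours and -0.98 to 0.05 in spontaneous tumours, so the size of the fall depended on the probe set.

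Aldh3a1 oxidises aromatic and medium-chain aldehydes and is inducible through the aryl hydrocarbon receptor. Its levels in cobalt tumours 1 to 6 were 4.94, 4.65, 4.70, 5.19, 5.23 and 5.67, in spontaneous tumours 1 to 6 they were 4.77, 5.13, 4.71, 4.99, 5.48 and 8.61, and in control lung they were 7.50 to 8.47. All 6 cobalt tumours and 5 of 6 spontaneous tumours were below every control lung, and spontaneous tumour 6 was above every control lung. The fall was 8.21-fold in cobalt tumours (-3.04, SE 0.49, limma adjusted p 0.000133) and 5.60-fold in spontaneous tumours (-2.49, SE 0.49, adjusted p 0.000777), or -3.09 without spontaneous tumour 6. Over the arrays with high Xist alone, which hold spontaneous tumours 4 and 6, the difference in spontaneous tumours was -1.30 (adjusted p 0.191). The low tumour values lie under 6.12, the mean level of the gene at the upper edge of the 6064 dimmest. Detection of these dim signals was not assessed here, and both fold changes may be too small.

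**Figure D2:**
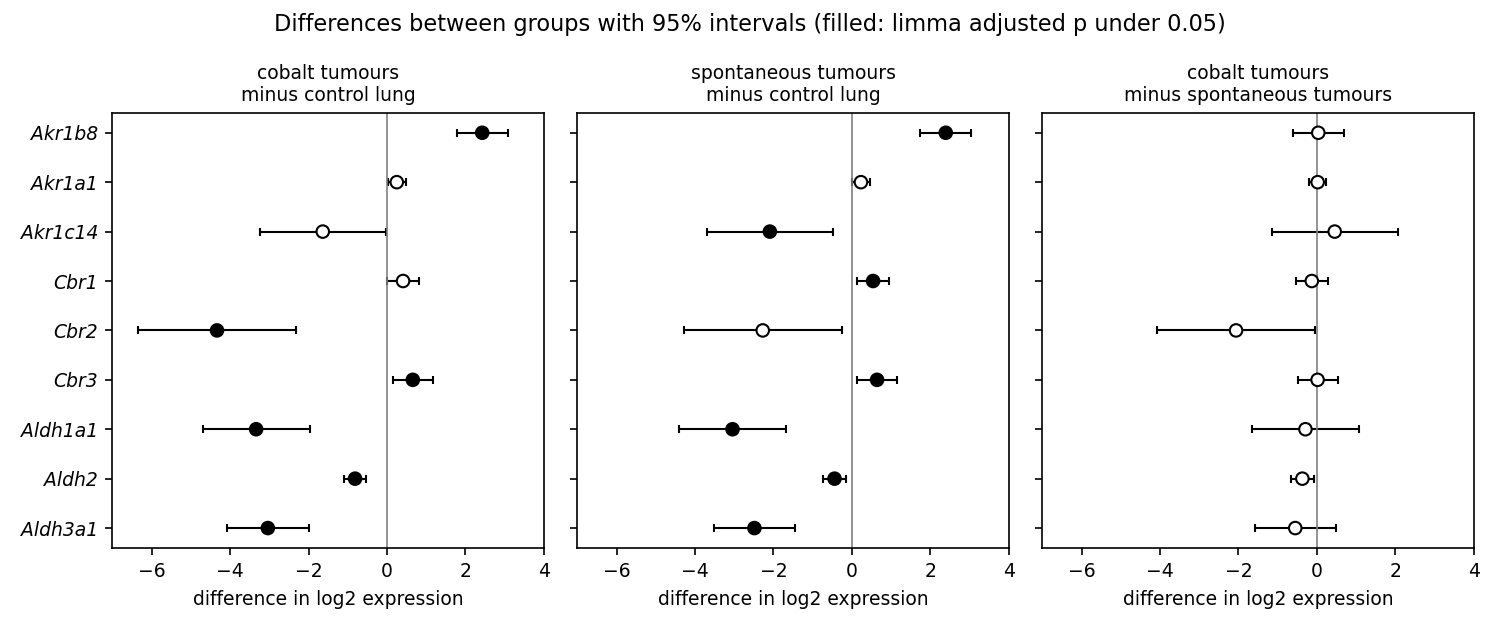
Difference in log2 expression (horizontal axis) for each of the 9 genes (rows) in cobalt tumours minus control lung, spontaneous tumours minus control lung, and cobalt tumours minus spontaneous tumours, with 95% intervals from the limma fit and filled points for an adjusted p under 0.05. Filled points appear for 6 genes in the left panel, 7 in the middle panel and 0 in the right panel, where the widest interval, that of Cbr2, runs from -4.07 to -0.05.

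Between the tumour groups, 0 of the 9 members were called in limma (0 by the exact permutation test with adjustment over all genes, 2 at an unadjusted p under 0.05), where 0.0824% of all genes were called (0.0440% higher, 0.0385% lower) and 0.616% did not overlap. The member ranges overlapped in every case. The largest difference was that of Cbr2, -2.06 in cobalt minus spontaneous tumours (95% interval -4.07 to -0.05, adjusted p 0.418), which was -3.73 (adjusted p 0.0222) without cobalt tumour 6 and spontaneous tumours 2 and 6 and 0.66 over the arrays with high Xist alone. Aldh2 differed by -0.37 (95% interval -0.66 to -0.08, limma adjusted p 0.291) and stayed below 0 under every setting tried. Its other probe sets went both ways, with differences of -0.21, 0.02, -0.15 and 0.11. For Akr1b8 the difference was 0.04 with an interval of -0.61 to 0.68, and for Akr1a1, Cbr1 and Cbr3 the intervals were -0.20 to 0.24, -0.53 to 0.27 and -0.49 to 0.53. Intervals were wider for Akr1c14 (-1.16 to 2.07), Aldh1a1 (-1.66 to 1.07) and Aldh3a1 (-1.59 to 0.49). A missed threshold does not show that cobalt and spontaneous tumours had equal levels.

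Across the 12 tumours the members did not vary as a block. Of all 36 pairs of members, the strongest relation was between Akr1b8 and Akr1c14, which ran in opposite directions (Pearson r -0.82, Spearman rho -0.82), and the 5 tumours with the highest Akr1b8 were the 5 with the lowest Akr1c14. This relation was -0.88 within cobalt tumours, -0.83 within spontaneous tumours and -0.73 without the 2 tumours farthest from the median of Akr1b8. Akr1b8 ran against Cbr2 as well (r -0.70, rho -0.77, -0.78 in cobalt and -0.86 in spontaneous tumours, -0.81 without the 2 farthest tumours). Cbr1 and Cbr3 varied together (r 0.74, rho 0.68, 0.69 in cobalt and 0.81 in spontaneous tumours, 0.69 without the 2 farthest), and their probe sets may share signal, since they are paralogs. Akr1a1 and Aldh1a1 had r 0.71 and rho 0.57 (0.67 in cobalt and 0.82 in spontaneous tumours, 0.65 without the 2 farthest). Cbr2 and Aldh1a1, both far below control lung, had r 0.96 in the 6 cobalt tumours and -0.66 in the 6 spontaneous tumours, a difference that was not tested. These coefficients describe 12 tumours that share their normalization and differ in cell content.

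**Figure D3:**
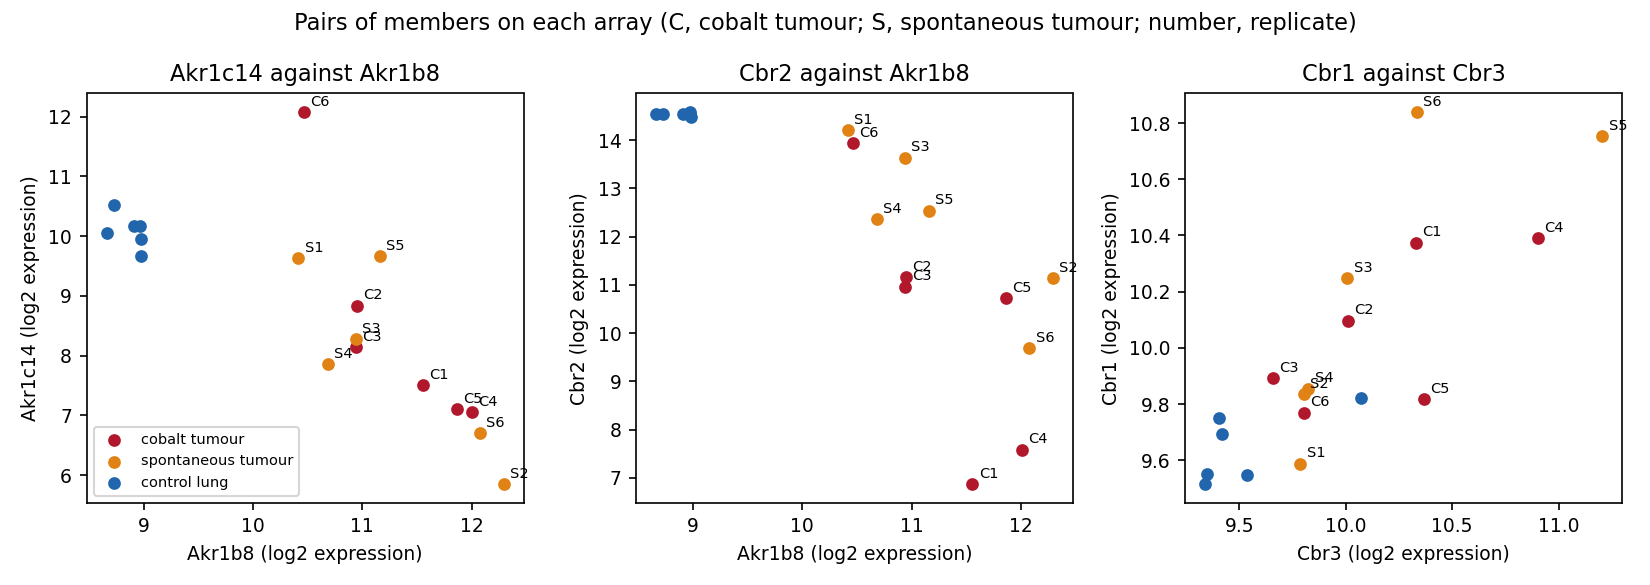
Levels of pairs of members on each array (log2 expression on both axes): Akr1c14 against Akr1b8, Cbr2 against Akr1b8, and Cbr1 against Cbr3, for cobalt tumours (C), spontaneous tumours (S) and control lung, with replicate numbers beside tumour points. Tumours with more Akr1b8 have less Akr1c14 and less Cbr2, and cobalt tumour 6 lies apart at an Akr1c14 level of 12.08.

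The genes whose levels followed each member most closely over the 12 tumours were searched among 12129 genes and are given with Pearson r. Akr1b8 was followed by Slc35f5 (0.98), Fam110c (0.95) and Cblc (0.95), and Akr1c14 by Usp2 (0.95), Fam117b (0.94) and Prcd (0.94). Akr1a1 was followed by Ccdc134 (0.93), Gpbp1l1 (0.90) and Eif4g2 (0.88). For the carbonyl reductases they were Rhoq (0.97), Lpl (0.95) and Il16 (0.93) with Cbr2, Nat10 (0.88), Ncaph2 (0.88) and Slc16a13 (0.87) with Cbr1, and 5730405A17Rik (0.90), Prdx3 (0.90) and Zfp691 (0.88) with Cbr3. Aldh1a1 was followed by Serpina3n (0.94), Olfml3 (0.94) and Maf (0.93), Aldh2 by Ephx1 (0.87), Ext1 (0.82) and Gas2l3 (0.82), and Aldh3a1 by Entpd5 (0.96), Golim4 (0.95) and Tkt (0.94). For the 3 genes with Aldh3a1 the Spearman rho was lower, at 0.83, 0.78 and 0.64, and 1 tumour, spontaneous tumour 6, had an Aldh3a1 level of 8.61 where the other 11 had 4.65 to 5.67. Each was picked as the highest of its search and carries no test.

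The wider enzyme families are given beside the members. Over all genes, 14.7% were higher and 19.3% lower in cobalt tumours, and 16.4% higher and 18.2% lower in spontaneous tumours. No count of these families, or of the retinoid and NRF2 genes below, was tested against those shares. Of 12 other aldo-keto reductases measured, 4 were higher in cobalt tumours and 3 in spontaneous tumours and 0 were lower (median difference 0.11 in cobalt and 0.16 in spontaneous tumours, beside -0.03 for all genes). Akr1c19, of the same gene cluster as Akr1c14, had 8.36, 9.28 and 10.45 in cobalt tumours, 7.49, 9.24 and 9.80 in spontaneous tumours and 5.44, 5.79 and 6.18 in control lung (lowest, median, highest). It rose in every tumour, by 3.56 or 11.8-fold in cobalt tumours (limma adjusted p 1.93e-06) and by 3.21 or 9.28-fold in spontaneous tumours (adjusted p 5.08e-06), opposite to Akr1c14. Akr1b10, an aldose reductase-like relative of Akr1b8, rose by 0.63 in cobalt tumours (adjusted p 0.0469) and by 0.85 in spontaneous tumours (adjusted p 0.00924). Akr1c13 was 1.29 higher in cobalt tumours (adjusted p 0.00935) and differed by 0.86 in spontaneous tumours (adjusted p 0.0734). Akr7a5, a reductase of succinic semialdehyde, was 0.36 higher in cobalt tumours and 0.48 higher in spontaneous tumours.

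Of 17 other aldehyde dehydrogenases measured, 1 was higher and 4 were lower in cobalt tumours, and 3 were higher and 3 lower in spontaneous tumours (median difference -0.18 in cobalt and -0.01 in spontaneous tumours). Aldh18a1, which makes the proline precursor pyrroline-5-carboxylate, rose by 1.22 in cobalt tumours (limma adjusted p 0.00196) and by 1.47 in spontaneous tumours (adjusted p 0.000437). Aldh1a7, a close paralog of Aldh1a1, fell by 1.50 in cobalt tumours (adjusted p 0.0198), with a difference of -0.41 (adjusted p 0.538) in spontaneous tumours. Aldh3b1 fell by 0.85 in cobalt tumours and by 1.23 in spontaneous tumours, and Aldh3a2, the fatty aldehyde dehydrogenase, fell by 0.41 in cobalt tumours and by 0.38 in spontaneous tumours. In spontaneous tumours the folate enzyme Aldh1l1 fell by 1.00, its mitochondrial relative Aldh1l2 rose by 0.90 and Aldh9a1, of carnitine synthesis, rose by 0.75. In cobalt tumours these genes differed by 0.12, 0.50 and 0.39 and were not called. The count of higher genes of this list in cobalt tumours ran from 1 to 3 over the alternatives and moved under 11 of 31. Other retinal dehydrogenases were not called in either tumour group: Aldh1a2 differed by -0.12 in cobalt and 0.77 in spontaneous tumours, and Aldh1a3 by -0.21 in cobalt and 0.60 in spontaneous tumours.

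Of 13 other carbonyl and alkenal reductases, 3 were higher and 4 lower in cobalt tumours and 3 were higher and 2 lower in spontaneous tumours (median difference -0.11 in cobalt and 0.13 in spontaneous tumours). Hsd11b1, which regenerates active glucocorticoid, fell by 2.38 in cobalt tumours (limma adjusted p 0.00039) and by 2.81 in spontaneous tumours (adjusted p 8.78e-05). Ptgr1, a reductase of prostaglandins and reactive alkenals, rose by 0.93 in cobalt tumours and 1.23 in spontaneous tumours. Dhrs4 rose by 0.86 in cobalt and 1.06 in spontaneous tumours, and the mitochondrial Cbr4 by 0.65 in cobalt and 0.99 in spontaneous tumours. Dhrs7c fell by 0.91 in cobalt tumours and by 0.96 in spontaneous tumours, and the retinal reductase Dhrs3 fell by 0.73 in cobalt tumours and differed by -0.27 in spontaneous tumours (adjusted p 0.227). Of 6 alcohol dehydrogenases, 1 was higher and 3 were lower in each tumour group (median difference -0.34 in cobalt and -0.33 in spontaneous tumours). Adh1, which oxidises ethanol and retinol, fell by 1.61 in cobalt tumours (adjusted p 0.0159) and by 2.68 in spontaneous tumours (adjusted p 0.000382). Adh7 fell by 0.79 in cobalt and by 0.76 in spontaneous tumours, and Adh6b by 0.50 in cobalt and by 0.47 in spontaneous tumours. Adh5, the formaldehyde-clearing enzyme, rose by 0.59 in cobalt and 0.52 in spontaneous tumours.

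**Figure D4:**
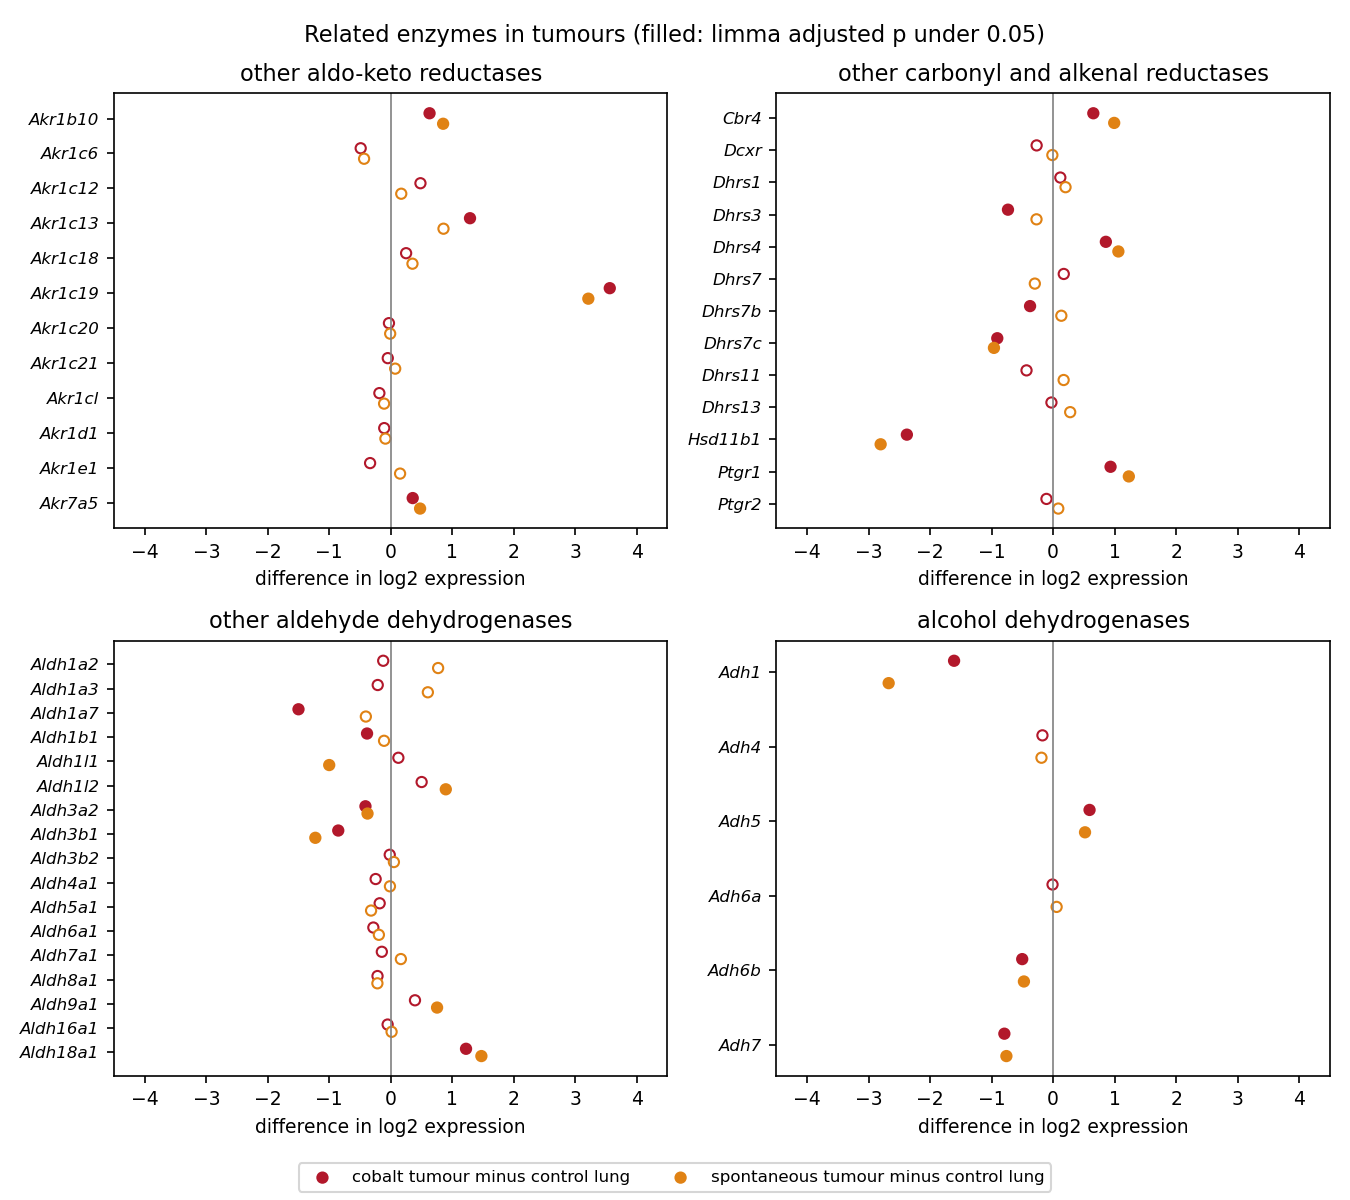
Difference in log2 expression from control lung (horizontal axis) for each measured gene (rows) of the other aldo-keto reductases, other carbonyl and alkenal reductases, other aldehyde dehydrogenases and alcohol dehydrogenases, in cobalt tumours and spontaneous tumours, with filled points for a limma adjusted p under 0.05. Akr1c19 stands farthest to the right, at 3.56 in cobalt tumours and 3.21 in spontaneous tumours, and Hsd11b1 and Adh1 stand farthest to the left.

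Retinal is a substrate of several members, and of 15 retinoid genes 1 was higher and 5 were lower in cobalt tumours and 0 were higher and 6 lower in spontaneous tumours (median difference -0.19 in cobalt and -0.23 in spontaneous tumours). Lrat, which stores retinol as esters, fell by 3.81 in cobalt tumours (limma adjusted p 1.79e-05) and by 3.48 in spontaneous tumours (adjusted p 4.17e-05). The retinoic acid receptor Rarb fell by 2.00 in cobalt tumours and by 1.74 in spontaneous tumours, and Cyp26b1, which degrades retinoic acid, fell by 1.91 in cobalt tumours and by 1.96 in spontaneous tumours. Rbp4, the retinol carrier of blood, rose by 1.74 in cobalt tumours (adjusted p 0.0131) and differed by 1.24 in spontaneous tumours (adjusted p 0.0687). The highest Lrat level in cobalt tumours, 8.98, was below the lowest in control lung, 9.30.

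Several members are known as targets of NRF2, a transcription factor set free when cells meet electrophiles. Of 16 NRF2 factors and targets, 7 were higher and 2 lower in each tumour group (median differences 0.20 in cobalt and 0.48 in spontaneous tumours). Beside them, 14.7% of all genes were higher and 19.3% lower in cobalt tumours, and 16.4% higher and 18.2% lower in spontaneous tumours. The heme-degrading enzyme Hmox1 rose by 1.73 in cobalt tumours and 1.65 in spontaneous tumours, the NADPH-producing malic enzyme Me1 by 1.59 in cobalt and 2.25 in spontaneous tumours, and the transporter Abcc4 by 1.44 in cobalt and 1.81 in spontaneous tumours. Nqo1, the quinone reductase often used to mark NRF2 activity, fell by 0.81 in cobalt tumours (limma adjusted p 0.00814) and by 1.12 in spontaneous tumours (adjusted p 0.000766). Gclm, of glutathione synthesis, fell by 0.63 in cobalt tumours and differed by -0.36 in spontaneous tumours (adjusted p 0.199). Gstm1, a glutathione transferase, differed by -0.40 in cobalt tumours (adjusted p 0.427) and fell by 1.17 in spontaneous tumours. None of the genes in these families was called between cobalt and spontaneous tumours by limma.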

How the data were processed

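RNA of 6 cobalt tumours, 6 spontaneous tumours and 6 control lungs was measured on 1 Affymetrix array each, from 100 ng of total RNA. The values that the authors deposited are on a log2 scale and come from RMA, as the submitters' processing notes name it, with no version or settings given. As usually run, RMA subtracts background, gives all arrays the same distribution and condenses each probe set to 1 value, so a shift of all genes together cannot be seen. Deposited values between 3.34 and 15.26 entered the tests unchanged (array medians between 6.32 and 6.45). An array gives no read depth, and its precision is limited by the 6 arrays per group.

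Of 45101 probe sets, 34945 had 1 gene symbol, 932 had several and 9160 had none, and 64 were control probe sets. Only those with 1 symbol were used. A gene was represented by its brightest probe set on average, which gave 18193 genes. Symbols were checked by Entrez identifier against RefSeq (34741 matched, 0 changed). Groups were taken from titles, sources and group labels. Whether the arrays of 1 group come from different animals is not in the labels, and a p-value therefore covers the spread between these arrays only, some of which may be technical.

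A single linear model over all 18 arrays was fitted with limma 3.58.1 in R 4.3.3 (lmFit, eBayes), two-sided, with p-values adjusted by Benjamini-Hochberg across all genes and a threshold of 0.05. The pipeline was tested on simulated data in which each gene had the same spread in every group. That test does not cover genes whose spread differs between tumours and control lung, such as Cbr2. Exact two-sided permutation tests used all 924 assignments of 6 against 6 arrays. Promoter windows were read from RefSeq sequences of build GRCm38.p6. All 10 listed genes were to be named, with up to 3 genes higher and 3 lower per related list and tumour group by size of difference, and the 3 genes most correlated with each member over tumours, outside the 6064 dimmest genes. The members and lists were chosen with earlier results of these data known. Aldh1a2 and Aldh1a3 were named after their values were seen. The closing section gives the effect of the alternatives: cyclic loess, other probe set rules, a filter on dim genes, array weights, trend and robust variance, the compared arrays only, the replicate block, Y-linked RNA as a covariate, permutation, and arrays left out.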

Additional observations from a re-analysis of the deposited data

Results flagged for a closer look

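Each of the 9 members was looked at in each group of 6 arrays, 27 groups in all, for a highest or lowest array whose gap to its neighbour, as a share of the whole range, passed the 95% critical value of Dixon's test. Chance alone marks about 1 in 20 groups this way. Akr1c14 was at 12.08 in cobalt tumour 6, where the other cobalt tumours had 7.06 to 8.84. Aldh3a1 was at 8.61 in spontaneous tumour 6, where the other spontaneous tumours had 4.71 to 5.48. Cbr3 was at 10.07 in control lung 2, where the other control lungs had 9.34 to 9.53.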

How the results depend on the processing

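Of the 27 member results (9 genes in 3 comparisons), 8 kept their direction and their side of the threshold under all 31 alternatives, 18 of which left out 1 array: Akr1b8 and Aldh1a1 in both tumour groups against control lung, Cbr2, Aldh2 and Aldh3a1 in cobalt tumours against control lung, and Aldh2 between the tumour groups. The last of these was never called, and the other Aldh2 probe sets did not all share its direction. Not every alternative could turn a direction. Permutation, the dim gene filter, trend and robust variance, the compared arrays alone, the replicate block and all probe sets leave a difference as it was. So do leaving out an array outside the compared groups and, for a gene with 1 probe set, the mean of probe sets. Those settings bear on the threshold only. With all 34945 probe sets of 1 symbol in place of 1 a gene, 11570 were called in cobalt tumours and 11582 in spontaneous tumours against control lung. The 18193 genes gave 6183 (34.0%) and 6295 (34.6%). These counts have unlike totals, so they do not show that a larger share was called. The 15 genes called between cobalt and spontaneous tumours became 26 without the 6064 dimmest genes, 24 with array weights, 1 with the compared arrays alone, 29 with Y-linked RNA as a covariate, 0 by permutation, 23 with all probe sets, 65 without spontaneous tumours 2 and 6, 354 without cobalt tumour 6 as well, 0 over arrays with Xist above 10, a setting chosen after seeing the data, and 1 to 82 with single arrays left out. The 2 members higher in cobalt tumours became 1 with cyclic loess and over high-Xist arrays, and 1 to 3 with single arrays left out. It stayed at 2 with the replicate block and with Y-linked RNA, where Cbr3 was lost (adjusted p 0.0662 and 0.115) and Akr1a1 gained (0.0397 and 0.0430), and without control lung 5 or 6, where the same exchange took place. The 3 members higher in spontaneous tumours became 1 with cyclic loess, Y-linked RNA, and without spontaneous tumours 2 and 6 (with or without cobalt tumour 6), and 1 to 3 with single arrays left out. The 4 members lower in spontaneous tumours became 2 with Y-linked RNA. Without cobalt tumour 6 and spontaneous tumours 2 and 6, 1 member, Cbr2, was lower in cobalt than in spontaneous tumours. The cause of these changes was not tested. With the replicate number as a block, 1 gene was called between the tumour groups and 1 member was higher in spontaneous tumours. Deviations of same-numbered arrays from their group means had r of -0.11 to 0.10 in cobalt tumours with control lung. The r was -0.05 to 0.05 in spontaneous tumours with control lung and -0.34 to 0.19 between the tumour groups. Differently numbered arrays were not set beside them, so these values cannot show whether the number pairs samples. Directions turned in these cases, none of them called: Akr1a1 in spontaneous tumours against control lung was -0.010 with cyclic loess. In cobalt minus spontaneous tumours, Akr1a1 was -0.034 with the mean of probe sets, -0.023 with array weights, -0.031 with Y-linked RNA, -0.039 without cobalt tumour 6 and spontaneous tumours 2 and 6, and -0.026 over high-Xist arrays. Akr1b8 was -0.32 and Cbr2 0.66 over high-Xist arrays. Akr1c14 was -0.21 with array weights, -0.41 without spontaneous tumours 2 and 6, and -1.13 without cobalt tumour 6 as well, where Cbr1 was 0.0032. Cbr1 was 0.018 with array weights. Cbr3 was -0.028, Aldh1a1 0.12 and Aldh3a1 0.077 without spontaneous tumours 2 and 6, and Cbr3 was -0.12 over high-Xist arrays. With single arrays left out the ranges were -0.042 to 0.066 for Akr1a1, -0.13 to 0.24 for Akr1b8, -0.27 to 0.79 for Akr1c14, -0.25 to 0.0012 for Cbr1, -0.13 to 0.23 for Cbr3, -0.84 to 0.088 for Aldh1a1 and -0.73 to 0.048 for Aldh3a1. Of 42 counts of list genes, 27 stayed within 1.5 times under all alternatives. Without scanner files the signal over background of dim probe sets, Aldh3a1 in tumours among them, is unknown here.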

Other observations

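Tumours were also divided by Xist above 10, a grouping that the labels do not give and that was chosen after seeing the data. The 2 sides did not overlap for Cbr1, Cbr2 and Aldh1a1 in cobalt tumours and for Aldh1a1 in spontaneous tumours. They overlapped for the other members in each group. With 4 arrays against 2, full separation arises readily by chance. The share of all genes separated in this way was not counted, so no result about the members is drawn from it. Cbr1 was at 9.77 to 10.10 in the 4 cobalt tumours with Xist above 10 and at 10.37 and 10.39 in the other 2. Cbr2 was at 10.72 to 13.93 in the 4 cobalt tumours with Xist above 10 and at 6.87 and 7.59 in the other 2 cobalt tumours, whereas it was at 9.69 and 12.36 in the 2 spontaneous tumours with Xist above 10 and at 11.14 to 14.21 in the other 4. Aldh2 overlapped between these arrays in cobalt tumours (10.88 to 11.52 against 10.82 and 11.55) and in spontaneous tumours (11.52 and 11.87 against 11.26 to 11.75).

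The polyol pathway, in which aldose reductase makes sorbitol, was represented by 5 measured genes. In cobalt tumours 1 of them was lower, the osmotic regulator Nfat5 (-0.37), and 0 were higher, and in spontaneous tumours 0 were called by limma in either direction. The count of lower genes in cobalt tumours ran from 0 to 2 over the alternatives and moved under 15 of 31, 10 of which left out a single array (control lung 2, 3, 4, 5 or 6, or cobalt tumour 1, 3, 4, 5 or 6). In spontaneous tumours the count of lower genes ran from 0 to 3. The median differences of the list were -0.26 in cobalt tumours and -0.28 in spontaneous tumours, beside -0.03 for all genes. Of all genes, 34.0% were called in cobalt tumours and 34.6% in spontaneous tumours. Khk, which phosphorylates fructose, differed by 0.20 in cobalt tumours (limma adjusted p 0.327) and -0.28 in spontaneous tumours (adjusted p 0.145).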
